A study of Mus musculus with 2 samples.

Results

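Tau is the microtubule-associated protein that aggregates in tauopathies, and 9 genes around it were followed through the hippocampal cell classes of PS19 and PZKO mice. They were taken by symbol from the 32285 genes in the count tables: *Mapt*, which encodes mouse tau, *Prnp*, which encodes the prion protein, *Map2*, the dendritic relative of tau, and the kinase genes *Gsk3b*, *Cdk5*, *Fyn*, *Mark1* and *Dyrk1a* together with *Cdk5r1*, which encodes the p35 activator of CDK5. All 9 were found, and the rule names them by symbol without a threshold on their values. Single-nucleus RNA sequencing of the hippocampus gave 1 library per genotype, each from a pool of males aged 9 months. The PS19 library comes from PS19 Zbp1-WT mice and the PZKO library from PS19 Zbp1-KO mice, the PS19 allele being hemizygous (PS19+/-) in both, so the mice of both libraries carry the PS19 transgene, a mutant human tau driven by the mouse *Prnp* promoter, and only *Zbp1* differs by design. Neither library lacks the transgene, no count can be traced to 1 animal, and the labels call the samples pooled while also stating that the hippocampi of single animals were handled apart.

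Tau binds along axonal microtubules, and its phosphorylation lowers that binding. GSK3β and CDK5 with its activator p35 phosphorylate tau at serines and threonines that precede or lie near prolines, MARK1 phosphorylates the microtubule-binding repeats, DYRK1A can prime tau for GSK3β, and the Src-family kinase FYN phosphorylates a tyrosine near the amino terminus. The prion protein is a glycoprotein held on the cell surface by a lipid anchor and is made by neurons and glia. The promoter of its gene is used to drive the tau transgene of PS19 mice, and mouse *Prnp* is therefore the endogenous gene with the same promoter. The human tau transgene has no row of its own in these mouse count tables. Whether reads from the transgene were counted under mouse *Mapt* or *Prnp* cannot be told apart here.

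The sequence before the start of *Prnp* is shown because both libraries share it between the endogenous gene and, as far as the construct contains it, the transgene. *Prnp* (ENSMUSG00000079037) spans chr2:131909928-131938429 on the plus strand of mm10. The 250 bases before this start, chr2:131909678-131909927, read in RefSeq (GRCm38.p6) as follows, 5′ to 3′, with GC boxes and CCAAT boxes in capitals.
Prnp promoter: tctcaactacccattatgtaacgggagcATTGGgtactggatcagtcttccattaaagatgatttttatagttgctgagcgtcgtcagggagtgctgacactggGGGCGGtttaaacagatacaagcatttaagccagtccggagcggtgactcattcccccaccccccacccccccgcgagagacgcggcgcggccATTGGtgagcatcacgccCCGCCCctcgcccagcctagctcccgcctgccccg
The GC box was searched as GGGCGG and its reverse complement CCGCCC, and the CCAAT box as CCAAT and its reverse complement ATTGG, which do not overlap each other. The GC box matched 2 times, beginning 146 and 35 bases before the gene start, and the CCAAT box matched 2 times, beginning 222 and 53 bases before it, in each case as ATTGG. Of 32851 promoters of the same length, 32.7% held at least 1 GC box and 33.9% at least 1 CCAAT box, while 16.7% and 10.1% held at least as many as *Prnp*. The window had a GC content of 58.8%, and no TATA box was searched. A match is a description of letters and not of a bound site.

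The other members differ widely in the length of the gene, which bears on nuclear RNA, since it is rich in unspliced transcripts. In GENCODE M21 (mm10), *Mapt* (ENSMUSG00000018411) spans chr11:104231390-104332090 and 100.7 kb, *Map2* (ENSMUSG00000015222) chr1:66175273-66442583 and 267.3 kb, *Gsk3b* (ENSMUSG00000022812) chr16:38089001-38246084 and 157.1 kb, and *Fyn* (ENSMUSG00000019843) chr10:39368855-39565381 and 196.5 kb. *Dyrk1a* (ENSMUSG00000022897) spans chr16:94570010-94695517 and 125.5 kb, and *Mark1* (ENSMUSG00000026620) lies on the minus strand at chr1:184896789-184999570, over 102.8 kb. The short genes are *Prnp* with 28.5 kb, *Cdk5* (ENSMUSG00000028969) on the minus strand at chr5:24418241-24423530 with 5.29 kb, and *Cdk5r1* (ENSMUSG00000048895) at chr11:80477023-80481184 with 4.16 kb.

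After filtering and removal of putative doublets, 9590 PS19 nuclei and 9307 PZKO nuclei were kept, with medians of 5849.5 and 9015 unique molecular identifiers (UMIs), and 47 barcodes occurred in both libraries. *Zbp1* had 92 UMIs over all PS19 nuclei (0.913 CPM, that is, scaled to the same UMI total in every class and library) and 38 UMIs in PZKO (0.25 CPM). Of 39 clusters, those whose markers pointed to 1 class were named, and 11 classes and 13 neuron clusters had at least 50 nuclei in each library. The class names below stand for "excitatory neuron-like" and so on, since they were assigned from marker genes. Of the fixed markers, all 8 of excitatory neurons, 10 of oligodendrocytes, 9 of microglia and 8 of endothelial cells were highest in their own class in both libraries, whereas inhibitory neurons reached 9 and 8 of 10 and oligodendrocyte precursor cells 7 and 6 of 7. Unnamed clusters held 4.26% of PS19 and 3.48% of PZKO nuclei. The members, and the genes of the further lists below, were left out before the 2000 variable genes behind the clusters were chosen.

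A test between the genotypes was not possible with 1 library of each, and the 95% intervals below cover counting error only. Each ratio is the log2 of PZKO over PS19 CPM with an exact Clopper-Pearson interval, and a ratio is called past the cut-off where it is at least 0.32 from 0, a ratio of 5 to 4, and the gene had at least 200 UMIs in the class over both libraries. In excitatory neurons 23.2% of 14278 genes with this minimum were past the cut-off, 16.2% lower in PZKO and 7% higher. Among the members there, 2 of 9 were past it, both lower in PZKO, which is close to the share over all genes. The median ratio of the 9 members was −0.00 against −0.07 over all genes.

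**Figure D1:**
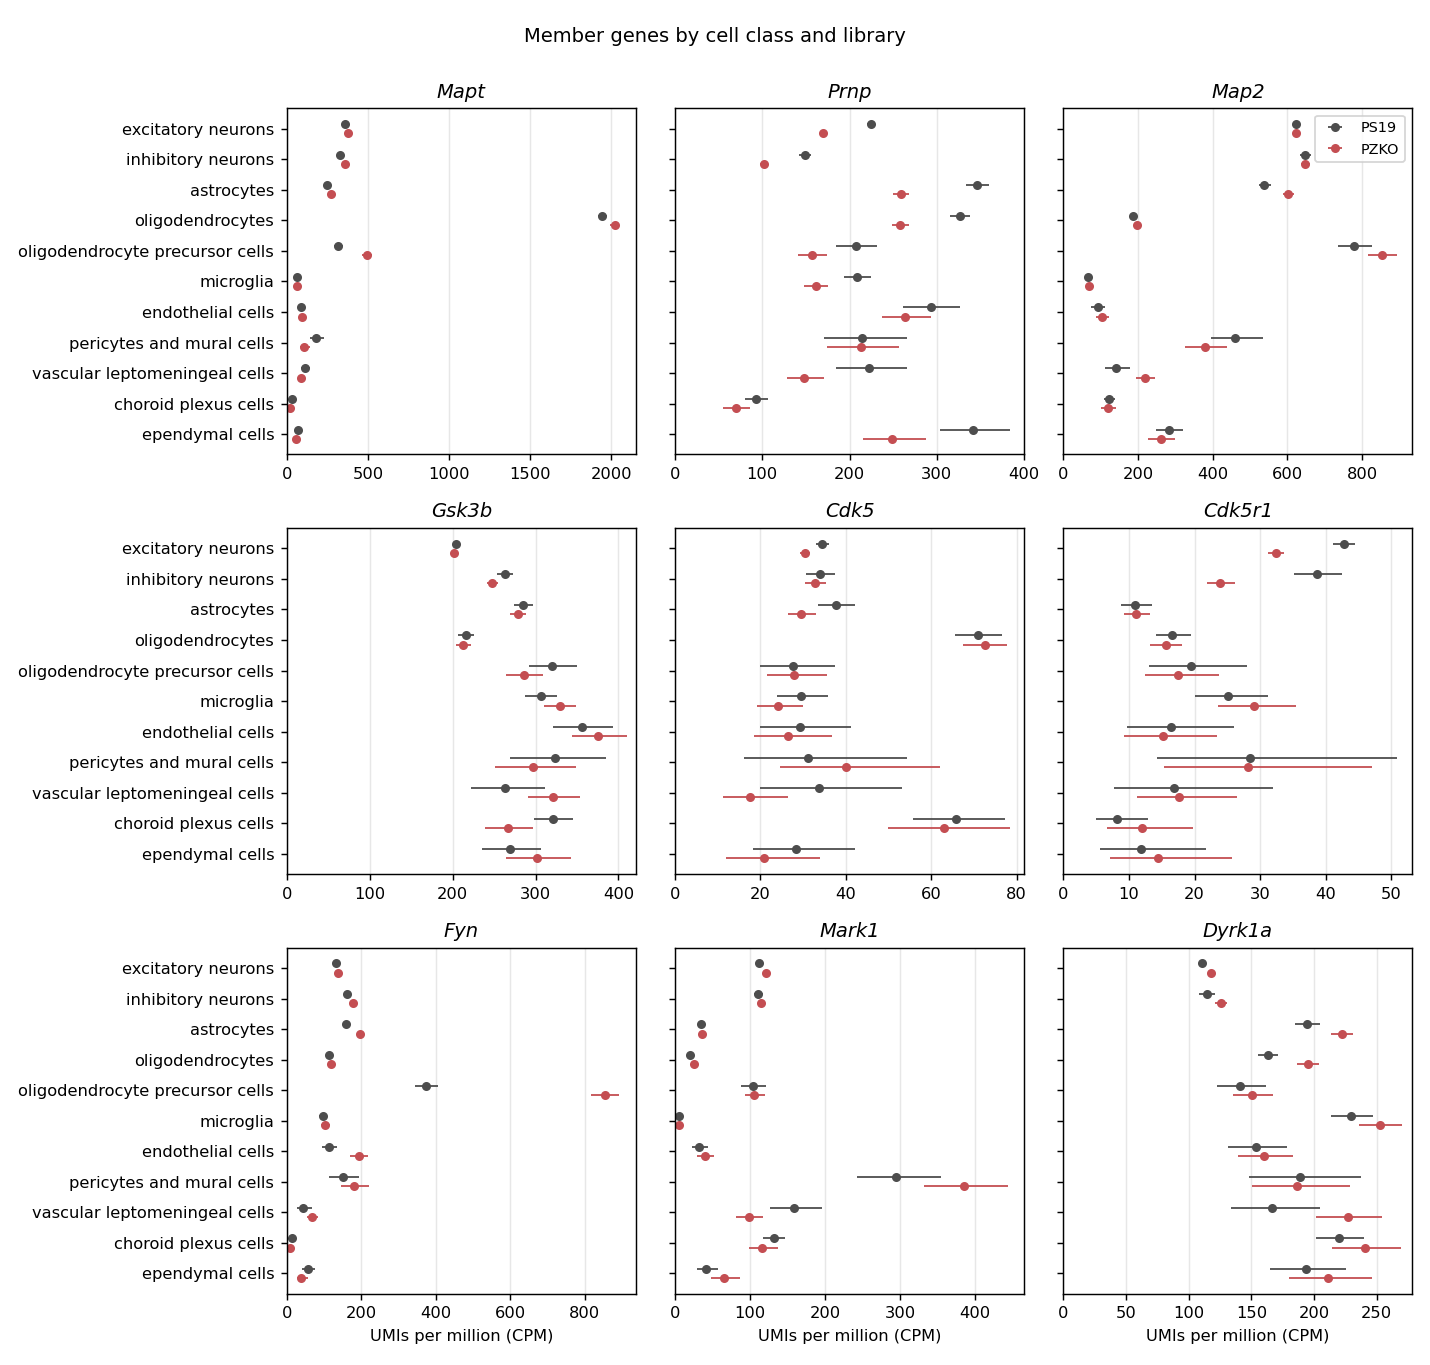
Level of each of the 9 genes, in CPM, in 11 cell classes of the PS19 and PZKO libraries, with exact 95% counting intervals as bars. *Mapt* lies at 1945 and 2022 CPM in oligodendrocytes, far above every other class in CPM. *Cdk5r1* is the member whose highest class in CPM is a neuron class in both libraries, which does not hold as a mean over nuclei or after thinning.

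Mouse *Mapt* was present in excitatory neurons at 357 CPM in PS19 and 375 CPM in PZKO and in inhibitory neurons at 326 and 357 CPM. Oligodendrocytes stood much higher in CPM, with 1945 CPM in PS19 and 2022 CPM in PZKO, 544% and 539% of the excitatory level. CPM is a share of UMIs, and oligodendrocyte nuclei averaged 3604.5 and 4642 UMIs against 21202 and 31041 in excitatory neurons. Per nucleus, *Mapt* was not higher in oligodendrocytes than in excitatory neurons. Oligodendrocytes had 18063 UMIs in 2576 PS19 nuclei and 21165 in 2255 PZKO nuclei. Excitatory neurons had 20897 in 2758 and 34927 in 3001. Inhibitory neurons had 3742 in 549 and 7178 in 614, fewer per nucleus than oligodendrocytes in PS19 and more in PZKO. After thinning to equal UMIs per nucleus, *Mapt* was detected in 96.1% of PS19 and 96.7% of PZKO oligodendrocyte nuclei. Thinning left out 400 and 165 shallower oligodendrocyte nuclei. The shares were 48.8% and 53.0% in excitatory neurons and 50% and 46.3% in inhibitory neurons. Orders of classes here and below are in CPM, not per nucleus. Oligodendrocytes are the myelinating cells of the brain, and their *Mapt* UMIs were spread over the class, since the 10 nuclei with the most held 1.89% and 1.85% of them. Astrocytes followed the neurons with 249 and 275 CPM. Endothelial cells (85.8 and 96.0 CPM), microglia (63.8 and 64.4 CPM) and choroid plexus cells (29.9 and 19.1 CPM) were at the low end, and the highest class exceeded the lowest 65.1-fold in PS19 and 106-fold in PZKO.

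Free RNA from lysed cells gives low counts of neuronal genes in every class. The 7 transcripts taken as neuron-only, *Slc17a7*, *Rbfox3*, *Snap25*, *Syt1*, *Camk2a*, *Gad1* and *Gad2*, had in microglia 3.35% to 16.2% of their neuronal level in PS19 and 3.66% to 17.5% in PZKO. The neuronal level is that of inhibitory neurons for *Gad1* and *Gad2*, the genes of GABA synthesis, and that of excitatory neurons for the other transcripts and for the members. *Mapt* in microglia was at 17.8% and 17.2% of its excitatory level, just above the highest of them in PS19 and just below it in PZKO, and in choroid plexus cells at 8.37% and 5.10%. In oligodendrocytes the neuron-only transcripts reached 14.9% and 19.0% at most, far below the share of *Mapt*. *Prnp*, *Gsk3b*, *Cdk5*, *Cdk5r1*, *Fyn* and *Dyrk1a* exceeded the highest neuron-only share in both libraries in 9 of 9 non-neuronal classes, *Mark1* in 8, and *Mapt* and *Map2* in 7. Some of these values rest on few UMIs. *Fyn* in PZKO choroid plexus cells had 11 UMIs (6.32% against 5.97%), and *Cdk5r1* in PS19 vascular leptomeningeal cells had 9 UMIs. In pericytes and mural cells, 10 nuclei held 84.3% of the 70 *Mapt* UMIs in PS19 and 66.7% of the 54 in PZKO. In vascular leptomeningeal cells, 10 nuclei held 58.3% of 60 and 65.8% of 111. The 7 transcripts trace free RNA from neurons only. Members also counted in glia can add free RNA from glia. Exceeding the neuron-only share therefore does not show a level above all free RNA. For *Mapt* in PZKO endothelial cells the margin was small (25.6% against 23.0%). The part of free RNA in any single value was not tested.

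Between the libraries, *Mapt* moved little in neurons. Its ratio was 0.07 (95% interval 0.04 to 0.09) in excitatory neurons and 0.13 (0.07 to 0.18) in inhibitory neurons, and in oligodendrocytes it was 0.06 (0.03 to 0.08). In 7 classes with at least 200 UMIs every ratio lay above 0, between 0.01 in microglia and 0.64 in oligodendrocyte precursor cells, and the latter alone was past the cut-off. The classes with fewer UMIs lay below 0. They were pericytes and mural cells (−0.74), choroid plexus cells (−0.65), vascular leptomeningeal cells (−0.40) and ependymal cells (−0.36). In the 7 classes with the minimum the median of all genes of 100 to 300 kb, the range of *Mapt*, was also above 0. It ran from 0.05 in endothelial cells to 0.11 in oligodendrocytes. At 100.7 kb *Mapt* lies at the edge of this range. For genes of 30 to 100 kb the median ran from −0.01 in excitatory neurons to 0.03 in oligodendrocytes. Over the 13 neuron clusters *Mapt* ranged from 309 to 422 CPM in PS19 and from 310 to 429 CPM in PZKO, and no cluster was past the cut-off. CA1 was lowest in PS19 with 309 CPM and 322 CPM in PZKO, and the *Npsr1* and *Tshz2* excitatory cluster was highest in PS19 with 422 CPM and 428 CPM in PZKO. The inhibitory cluster led by *Ano2* and *Pld5* had the largest ratio, with 320 CPM in PS19 and 390 CPM in PZKO (0.28, 0.17 to 0.40).

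*Prnp* was more evenly spread. Astrocytes held 347 CPM in PS19 and 259 CPM in PZKO, ependymal cells 342 and 249 CPM, and oligodendrocytes 327 and 258 CPM. Endothelial cells, with 293 and 264 CPM, were next, and excitatory neurons held 224 and 169 CPM. Inhibitory neurons (149 and 102 CPM) and choroid plexus cells (92.7 and 69.3 CPM) were lowest, and the highest class exceeded the lowest 3.74-fold in PS19 and 3.81-fold in PZKO. Of 10 neighbouring pairs in the order of classes, 7 overlapped in their pairs of library values, so the order among astrocytes, ependymal cells, oligodendrocytes and endothelial cells cannot be fixed.

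In PZKO *Prnp* was lower in every class that had the minimum. In excitatory neurons 13109 UMIs in PS19 and 15750 UMIs in PZKO gave a ratio of −0.41 (−0.44 to −0.37), in inhibitory neurons −0.54 (−0.64 to −0.45), in astrocytes −0.42 (−0.49 to −0.34) and in oligodendrocytes −0.34 (−0.41 to −0.26). Microglia had 209 CPM in PS19 and 161 CPM in PZKO (−0.37, −0.54 to −0.21), and oligodendrocyte precursor cells 207 and 157 CPM (−0.40, −0.63 to −0.18). In 9 of 10 classes the difference was past the cut-off, where the share of all genes lower past that fold was 16.2% in excitatory neurons, 14% in inhibitory neurons, 16.8% in astrocytes, 14.4% in oligodendrocytes, 10.2% in precursor cells, 11.3% in microglia, 11.8% in vascular leptomeningeal cells, 10.7% in choroid plexus cells and 8.06% in ependymal cells. Endothelial cells, at −0.15 (−0.37 to 0.07), were the exception, with a background of 7.08%. Among genes of 10 to 30 kb, the range of *Prnp*, the lower shares were 14.3% in excitatory neurons, 15.2% in inhibitory neurons and 20.5% in astrocytes. They were 16.1% in oligodendrocytes, 22.6% in precursor cells, 14.8% in microglia and 13.4% in endothelial cells. In vascular leptomeningeal, choroid plexus and ependymal cells they were 27.9%, 18.2% and 24.1%. Pericytes and mural cells stood at 215 CPM in PS19 and 213 CPM in PZKO on fewer than 200 UMIs (−0.01, −0.44 to 0.42). With DESeq2 size factors the value fell just short of the cut-off in excitatory neurons (−0.320) and short of it in oligodendrocytes (−0.26) and precursor cells (−0.31). As a mean over nuclei it fell short in oligodendrocytes (−0.28), precursor cells (−0.31) and ependymal cells (−0.16), and after thinning to 2000 UMIs per nucleus in oligodendrocytes (−0.30), microglia (−0.19) and ependymal cells (−0.083).

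**Figure D2:**
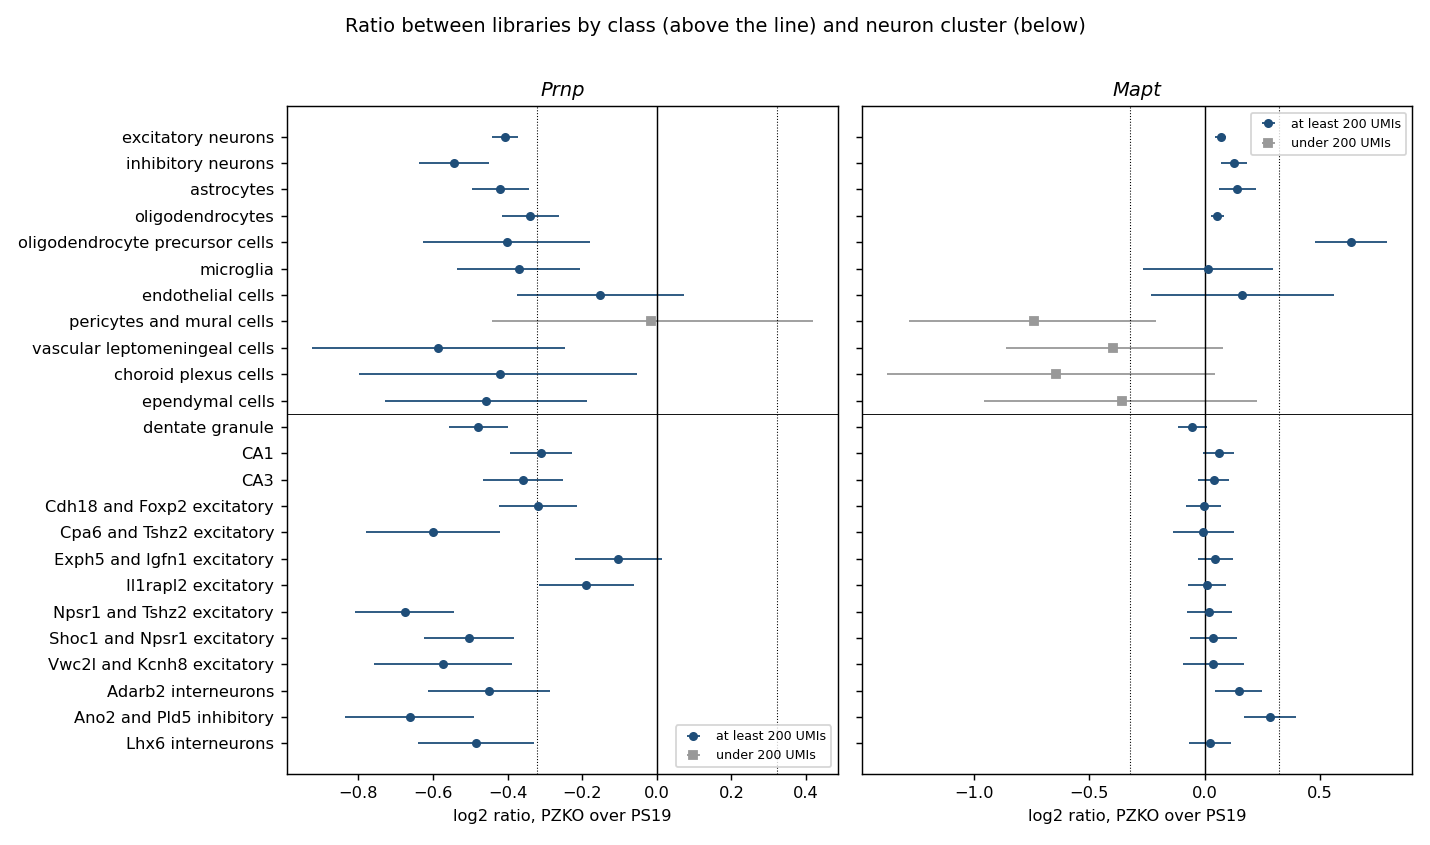
Log2 ratio of PZKO over PS19 for *Prnp* and *Mapt*, in classes above the line and neuron clusters below it, with exact 95% counting intervals and dotted lines at the cut-off. *Prnp* lies below 0 in 13 of 13 neuron clusters, and *Mapt* lies within the dotted lines in all 13.

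Among neuron clusters *Prnp* was below 0 in 13 of 13 and past the cut-off in 9, where the share of all genes lower past the cut-off was 15.2% in dentate granule neurons, 11.1% in CA1, 11% in CA3, 9.25% in the *Cdh18* and *Foxp2* cluster, 13.7% in the *Cpa6* and *Tshz2* cluster, 7.9% in the *Exph5* and *Igfn1* cluster, 6.98% in the *Il1rapl2* cluster, 11% in the *Npsr1* and *Tshz2* cluster, 9.68% in the *Shoc1* and *Npsr1* cluster, 9.82% in the *Vwc2l* and *Kcnh8* cluster, 11.4% in Adarb2 interneurons, 14.7% in the *Ano2* and *Pld5* cluster and 11.1% in Lhx6 interneurons. Among genes of 10 to 30 kb this share ran from 8.30% in the *Il1rapl2* cluster to 23.3% in the *Ano2* and *Pld5* cluster. Dentate granule neurons went from 253 CPM in PS19 to 182 CPM in PZKO (−0.48, −0.56 to −0.40), CA1 from 234 to 189 CPM (−0.31, −0.39 to −0.23) and CA3 from 169 to 132 CPM (−0.36, −0.46 to −0.25). The largest differences were in the *Npsr1* and *Tshz2* excitatory cluster, with 279 and 175 CPM (−0.68, −0.81 to −0.54), and the *Ano2* and *Pld5* inhibitory cluster, with 175 and 110 CPM (−0.66, −0.83 to −0.49). Lhx6 interneurons were lowest in both libraries, at 119 and 85.2 CPM. The *Exph5* and *Igfn1* excitatory cluster had 183 CPM in PS19 and 171 CPM in PZKO (−0.10, −0.22 to 0.01), an interval that reaches 0. In the same cluster, the median ratio of all genes was −0.085 under 10 kb and 0.01 for 10 to 30 kb.

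The gene span moved with the ratios of all genes. In excitatory neurons the median ratio was −0.25 for genes under 10 kb, of which 37.7% were lower past the cut-off, −0.11 for genes of 10 to 30 kb, −0.01 for 30 to 100 kb, 0.08 for 100 to 300 kb and 0.12 above 300 kb. *Prnp*, in the range of 10 to 30 kb, differed from the median of its range by −0.30, and in inhibitory neurons, astrocytes and oligodendrocytes by −0.44, −0.29 and −0.24. *Cdk5r1* differed from the median of its range by −0.15 in excitatory neurons. The median share of mitochondrial UMIs also differed, with 0.265% in PS19 and 0.184% in PZKO in excitatory neurons and 0.569% and 0.369% in astrocytes. It was not lower in PZKO in the endothelial cells (1.05% and 1.10%) and the pericytes and mural cells (0.627% and 0.732%), the classes in which *Prnp* was near 0. A stricter filter on nuclei asked at once for 1000 UMIs, 500 genes and at most 1% mitochondrial UMIs. Under it *Prnp* was at −0.27 in excitatory neurons, −0.25 in inhibitory neurons, −0.26 in oligodendrocytes and −0.33 in astrocytes, and at −0.30 in both endothelial cells and pericytes and mural cells. In microglia (−0.37), precursor cells (−0.37) and choroid plexus cells (−0.43) it changed little, in vascular leptomeningeal cells it was at −0.85, and ependymal cells gave no value. The part of span and of mitochondrial RNA in the difference was not tested.

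**Figure D3:**
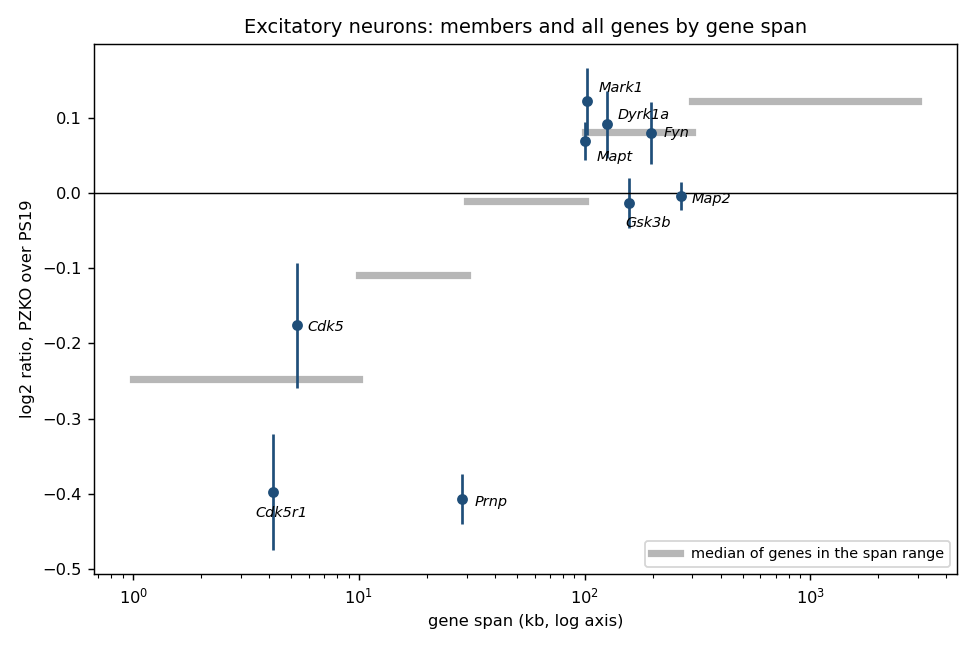
Log2 ratio of PZKO over PS19 in excitatory neurons against gene span (log axis), with members as labelled points and grey bars for the median of all genes in each span range. The median rises from −0.25 under 10 kb to 0.12 above 300 kb, and *Prnp* and *Cdk5r1* lie below the bar of their range.

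*Map2* encodes the microtubule-associated protein of dendrites and neuronal cell bodies. It was highest in oligodendrocyte precursor cells, with 779 CPM in PS19 and 854 CPM in PZKO, and next in inhibitory neurons (648 and 648 CPM) and excitatory neurons (624 and 622 CPM). Oligodendrocytes held 186 and 197 CPM, so that *Map2* and *Mapt* had opposite orders in CPM between neurons and oligodendrocytes. In microglia (67.1 and 69.5 CPM) it was lowest and within the range of the neuron-only transcripts, at 10.8% and 11.2% of the excitatory level. The ratio was −0.00 in excitatory neurons and past the cut-off only in vascular leptomeningeal cells (142 and 218 CPM, 0.62, 0.25 to 1.0), where 10 nuclei held 75.0% of the 76 PS19 UMIs and 19.7% of all genes were higher past the cut-off.

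The CDK5 pair did not share a pattern. *Cdk5* was highest in oligodendrocytes, at 71.0 CPM in PS19 and 72.5 CPM in PZKO, and in choroid plexus cells, at 65.9 and 62.9 CPM, and stood at 34.4 and 30.5 CPM in excitatory neurons. *Cdk5r1* was highest in excitatory neurons, at 42.7 and 32.4 CPM, and lower in oligodendrocytes, at 16.6 and 15.6 CPM. In CPM it was the only one of the 9 members with its highest class among the neurons in both libraries. This held for 0 members as a mean over nuclei or after thinning to 2000 UMIs per nucleus. After thinning, *Cdk5r1* was detected in 7.65% of PS19 and 5.61% of PZKO excitatory nuclei and in 8.82% and 5.07% of inhibitory nuclei. In pericytes and mural cells the shares were 5% and 6%, with a wide interval in PZKO (2.23% to 12.6%). The members were not ranked by UMIs per nucleus, where neurons had more UMIs in all. The pair of excitatory *Cdk5r1* values from both libraries overlapped the pair of the inhibitory neurons next in order. Inhibitory neurons had 38.7 CPM in PS19 and 23.9 CPM in PZKO, each below the excitatory value of the same library. Divided by gene span, *Cdk5r1* had the highest value of the members in excitatory neurons, 10.3 CPM per kb in PS19 and 7.79 CPM per kb in PZKO, before *Prnp* with 7.87 and 5.93 CPM per kb and *Cdk5* with 6.51 and 5.76 CPM per kb. *Mapt* had 3.55 and 3.72 CPM per kb, and *Fyn* was lowest with 0.667 and 0.705 CPM per kb. The short genes come first in this order, in which their CPM is divided by few kb, so it does not rank levels. Before the division *Mapt* was at 357 and 375 CPM there.

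*Cdk5r1* was lower in PZKO in both neuron classes. The ratio was −0.40 (−0.47 to −0.32) in excitatory neurons and −0.69 (−0.88 to −0.50) in inhibitory neurons, where levels were 38.7 CPM in PS19 and 23.9 CPM in PZKO and 14% of all genes were lower past the cut-off. Of genes under 10 kb, the range of *Cdk5r1*, 37.7% were lower past it in excitatory neurons and 42.5% in inhibitory neurons. In oligodendrocytes and astrocytes, the other classes with the minimum, *Cdk5r1* was not past the cut-off. In excitatory neurons it fell short of the cut-off with DESeq2 size factors (−0.31) and with the stricter filter (−0.27). Of 12 neuron clusters with the minimum, 10 were past the cut-off, all lower. In single clusters 6.98% to 15.2% of all genes were lower past it. Of genes under 10 kb, the share ran from 16.2% in the *Exph5* and *Igfn1* cluster to 53.0% in the *Ano2* and *Pld5* cluster. The largest *Cdk5r1* ratios were in the *Cpa6* and *Tshz2* excitatory cluster, with 67.9 CPM in PS19 and 32.5 CPM in PZKO (−1.06, −1.44 to −0.68), and the *Ano2* and *Pld5* inhibitory cluster, with 66.6 and 32.7 CPM (−1.02, −1.32 to −0.73). The *Exph5* and *Igfn1* cluster, in which *Prnp* moved least, had 49.5 and 48.0 CPM (−0.04, −0.27 to 0.18). *Cdk5* was past the cut-off in CA1 neurons, at 37.8 and 27.4 CPM (−0.47, −0.68 to −0.25), and in astrocytes, at 37.7 and 29.6 CPM (−0.35, −0.58 to −0.12). In astrocytes it fell short with DESeq2 size factors (−0.26), TMM scaling (−0.27) and the stricter filter (−0.30). It also fell short there with no filter on nuclei (−0.31) and when doublets were not removed (−0.30). At −0.18 (−0.26 to −0.09) in excitatory neurons *Cdk5* was not past the cut-off. Of all genes, 11.1% in CA1 and 16.8% in astrocytes were lower past the cut-off. For genes under 10 kb, the range of *Cdk5*, the shares were 34.2% and 50.9%, with median ratios of −0.24 and −0.33.

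**Figure D4:**
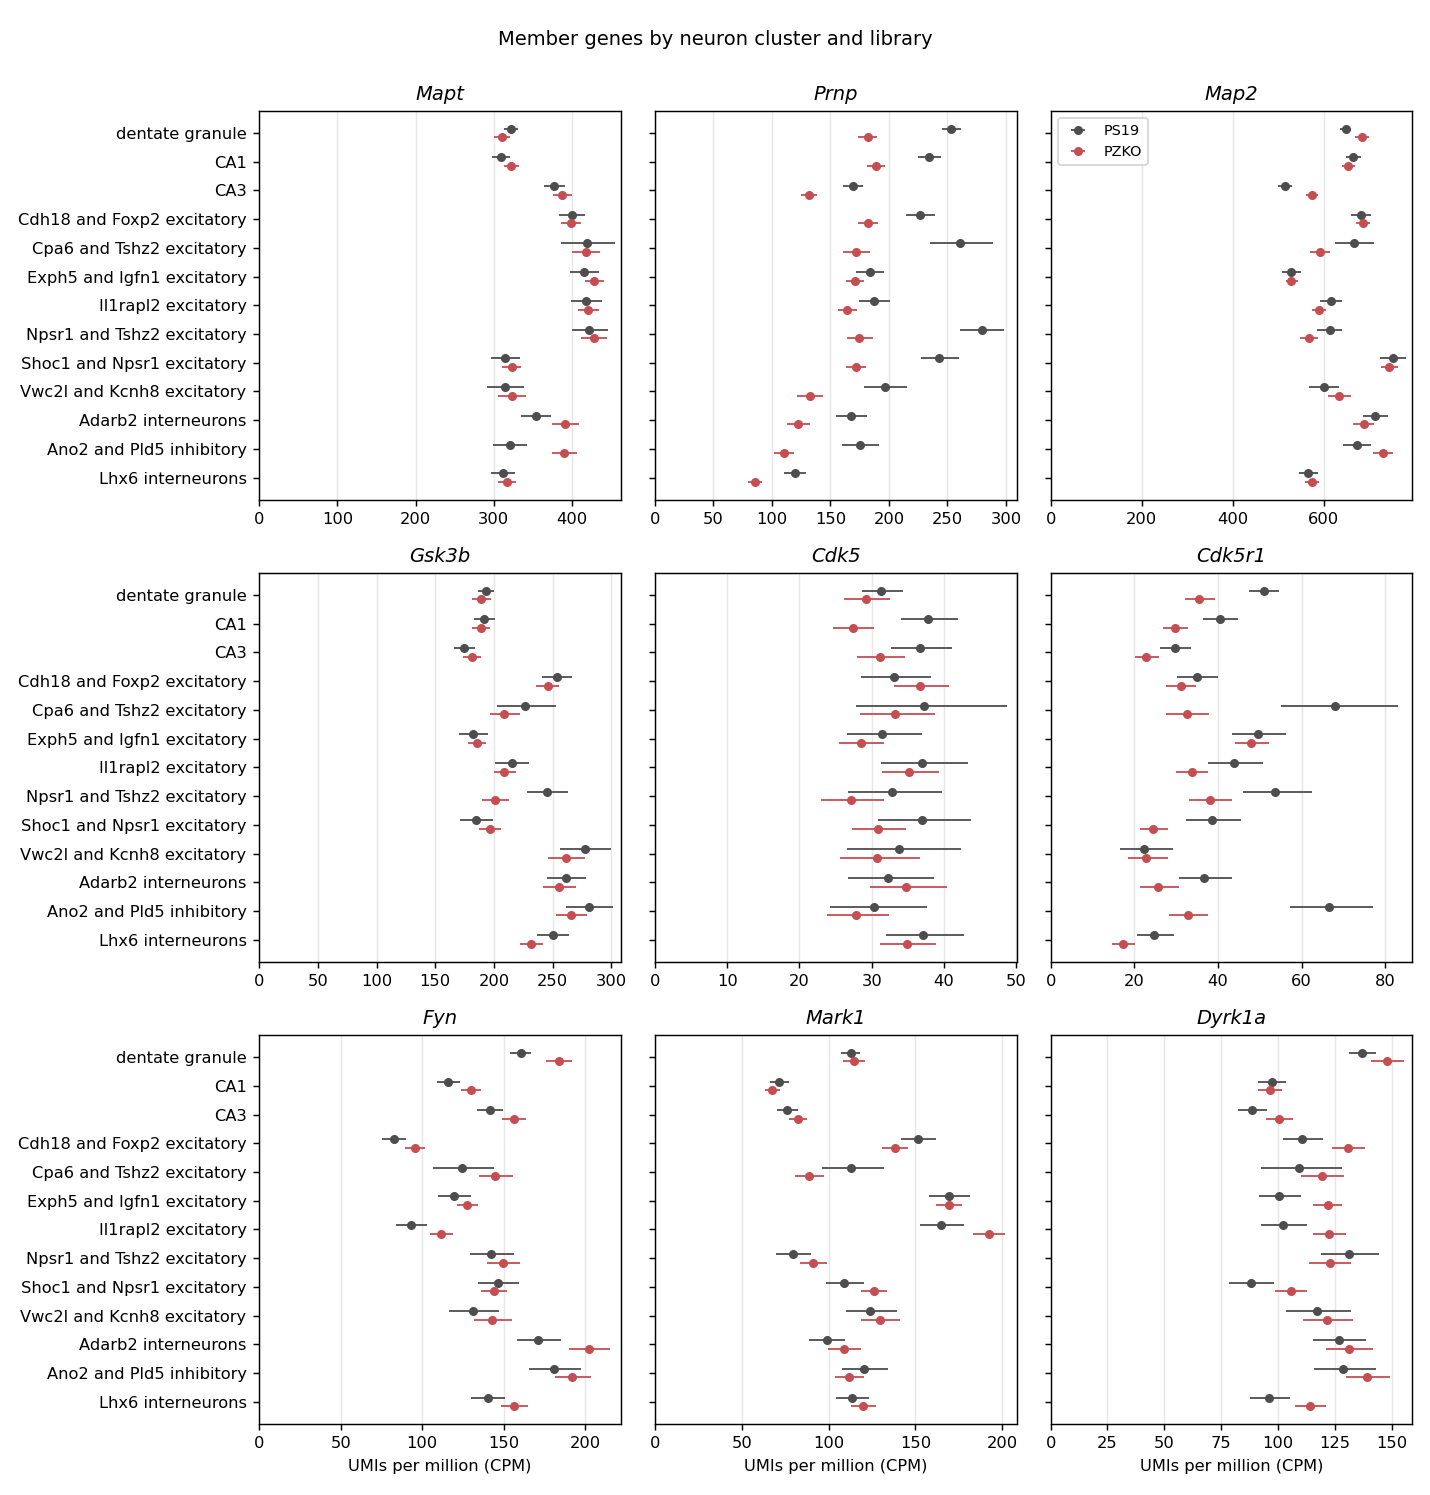
Level of each of the 9 genes, in CPM, in 13 neuron clusters of the PS19 and PZKO libraries with exact 95% counting intervals as bars. *Cdk5r1* and *Prnp* show PS19 above PZKO in most clusters, whereas *Gsk3b* and *Mapt* overlap or lie close in most.

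*Gsk3b*, the gene of the kinase GSK3β, was lowest in excitatory neurons, at 204 CPM in PS19 and 202 CPM in PZKO, and highest in endothelial cells, at 356 and 376 CPM. The range of CPM over 11 classes was narrow, 1.75-fold in PS19 and 1.86-fold in PZKO. Without scaling for depth, *Gsk3b* was detected in 93.5% and 96.4% of excitatory nuclei and in 56.7% and 62.4% of endothelial nuclei. No class and no neuron cluster was past the cut-off. Its lowest cluster ratio, −0.29 (−0.42 to −0.15), was in the *Npsr1* and *Tshz2* cluster, with 245 and 201 CPM.

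*Dyrk1a* was also lowest in excitatory neurons, at 111 and 118 CPM, and highest in microglia, at 230 CPM in PS19 and 253 CPM in PZKO. Without scaling for depth, it was detected in 84.2% and 91.7% of excitatory nuclei and in 49.1% and 58.3% of microglial nuclei. All 10 classes with the minimum had ratios above 0, from 0.06 to 0.45, and vascular leptomeningeal cells were past the cut-off (166 and 227 CPM, 0.45, 0.10 to 0.81, and 0.29 when doublets were not removed). There 19.7% of all genes were higher past the cut-off. In these 10 classes the median of all genes of 100 to 300 kb, the range of *Dyrk1a*, was also above 0. It ran from 0.05 in endothelial cells to 0.11 in oligodendrocytes. Among neurons, dentate granule neurons held the most *Dyrk1a*, 137 CPM in PS19 and 148 CPM in PZKO.

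*Mark1* and *Fyn* had the widest spread over classes of the kinases. Pericytes and mural cells, which wrap small vessels, held 295 CPM in PS19 and 385 CPM in PZKO, excitatory neurons 111 and 121 CPM, oligodendrocytes 19.5 and 25.8 CPM, and microglia 4.91 and 5.64 CPM. In microglia the level was 4.41% and 4.66% of the excitatory level, within the range of the neuron-only transcripts. The highest class exceeded the lowest 60.1-fold in PS19 and 68.3-fold in PZKO. Within neurons, CA1 was lowest with 71.5 and 67.6 CPM, and the *Exph5* and *Igfn1* cluster held 169 and 169 CPM. The ratio was past the cut-off in 3 classes, in differing directions: −0.69 in vascular leptomeningeal cells, 0.40 in oligodendrocytes and 0.38 in pericytes and mural cells. Higher past the cut-off were 5.03% of all genes in oligodendrocytes and 27.4% in pericytes and mural cells, and 11.8% were lower past it in vascular leptomeningeal cells. For genes of 100 to 300 kb, the range of *Mark1*, these shares past the cut-off were 10.4%, 36.9% and 7.45%. Among neuron clusters *Mark1* was past it in the *Cpa6* and *Tshz2* cluster (113 and 88.9 CPM, −0.35, −0.61 to −0.08), where 13.7% of all genes were lower past it.

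*Fyn* was highest in oligodendrocyte precursor cells and had the largest ratio of any member there. The precursor cells held 555 UMIs and 373 CPM in PS19 against 1961 UMIs and 854 CPM in PZKO, a ratio of 1.19 (1.06 to 1.33). *Mapt* was also higher, with 318 and 493 CPM (0.64, 0.48 to 0.79, and 0.26 when doublets were not removed), *Map2* was at 0.13 and *Prnp* at −0.40. Of 7 members with the minimum in this class, 2 were higher past the cut-off and 1 lower, against 10.4% and 10.2% of all genes.

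The *Fyn* UMIs of the precursor class were concentrated in few nuclei, more so in PZKO. The 10 precursor nuclei with the most *Fyn* held 27.6% of its UMIs in PS19 and 44.0% in PZKO, with 28 and 138 UMIs in the highest nucleus. *Enpp6*, a marker of newly forming oligodendrocytes, was detected in 4 of 213 precursor nuclei in PS19 (1.88%, exact 95% interval 0.514% to 4.74%) and in 20 of 211 in PZKO (9.48%, 5.89% to 14.3%), with 8 and 366 UMIs. *Enpp6* was also among the 10 leading genes of an oligodendrocyte cluster with 796 PS19 and 684 PZKO nuclei, so it was not limited to the precursor class. In microglia, which should lack it, the share of nuclei with *Enpp6* was 1.16% and 1.45%, at medians of 3313 and 4171 UMIs against 6797 and 10336 in the precursor class. *Fyn* was at 1385 CPM in the 4 PS19 nuclei with *Enpp6* and at 3812 CPM in the 20 PZKO nuclei, and *Mapt* was at 554 and 1154 CPM.

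Without the nuclei that held *Enpp6*, *Fyn* was at 353 CPM in PS19 and 390 CPM in PZKO (0.14, −0.02 to 0.31), an interval that reaches 0. *Mapt* was then at 313 and 390 CPM (0.317, 0.15 to 0.49) and *Prnp* at −0.30 (−0.53 to −0.07), and neither these values nor that of *Fyn* were past the cut-off (0.3219 before rounding). *Enpp6* was picked after the values had been seen. More PZKO than PS19 nuclei held it, and these nuclei were high in *Fyn*, so leaving them out had to lower the *Fyn* ratio. Over the whole precursor class, *Bcas1*, *Tcf7l2* and *Mbp*, genes of the step from precursor to oligodendrocyte, were higher in PZKO with ratios of 0.86, 1.08 and 1.83, while of the precursor markers *Pdgfra* was at −0.35 and *Cspg4* at 0.0025. Without the nuclei that held *Enpp6*, *Bcas1* was at −0.20, *Tcf7l2* at 0.037, *Mbp* at 0.42, *Pdgfra* at −0.17 and *Cspg4* at 0.17.

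**Figure D5:**
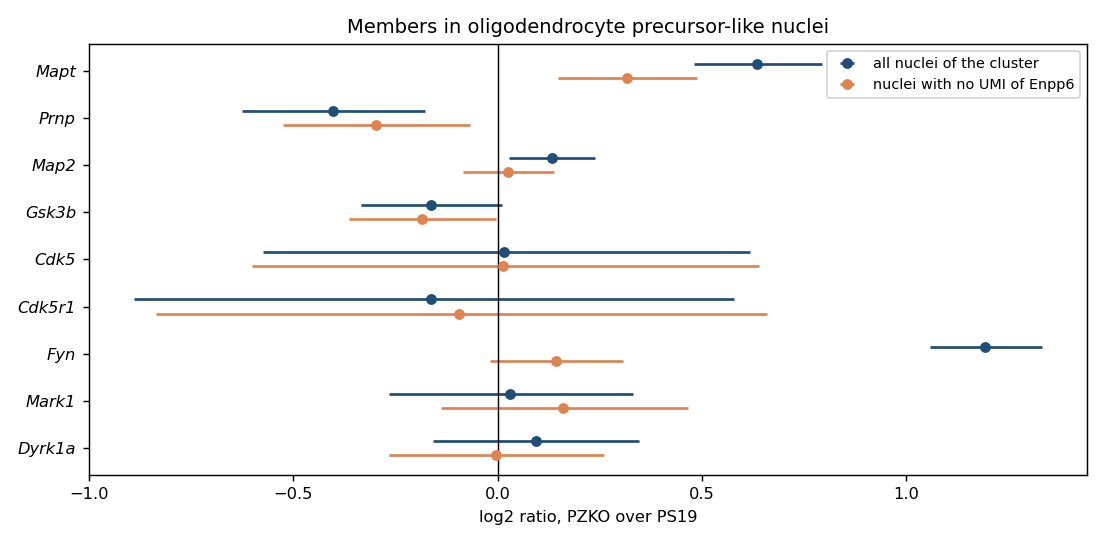
Log2 ratio of PZKO over PS19 for the 9 genes in oligodendrocyte precursor nuclei, for all nuclei of the class and for the nuclei without *Enpp6*, with exact 95% counting intervals. *Fyn* moves from 1.19 to 0.14 and *Mapt* from 0.64 to 0.32 when nuclei with *Enpp6* are left out.

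Endothelial cells were the other class in which *Fyn* was past the cut-off, with 125 UMIs (114 CPM) in PS19 and 255 UMIs (193 CPM) in PZKO (0.76, 0.44 to 1.08), where 9.1% of all genes were higher past the cut-off. Its UMIs were less concentrated, with 24.8% and 27.1% of them in the 10 nuclei with the most. After thinning each nucleus to 2000 UMIs, which left out 122 and 118 of 328 and 327 nuclei, *Fyn* was detected in 19.4% (14.2% to 25.5%) of PS19 and 28.2% (22.2% to 34.9%) of PZKO endothelial nuclei, where the unthinned shares were 24.7% and 39.4%. In choroid plexus cells, where *Fyn* was lowest, the thinned shares were 2.30% and 3.12%. In endothelial cells the highest neuron-only transcript stood at 17.9% of its neuronal level in PS19 and 23.0% in PZKO, and the part of free RNA was not tested. In neurons *Fyn* was at 131 and 139 CPM in the excitatory class (0.08) and above 0 in 12 of 13 clusters, none past the cut-off. The median of all genes of 100 to 300 kb, the range of *Fyn*, was above 0 in all 13 clusters, from 0.05 to 0.14. In astrocytes *Fyn* was at 160 and 196 CPM (0.29).

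Counted over all classes, 13 of 73 member values with the minimum were lower past the cut-off and 7 of 73 higher, while 7.08% to 16.8% and 5.03% to 27.4% of all genes were in single classes. *Prnp* made up 9 of the 13 lower values and *Cdk5r1* 2. Over neuron clusters 21 of 116 member values were lower past the cut-off and 0 higher, *Prnp* with 9 and *Cdk5r1* with 10 of them, while 6.98% to 15.2% of all genes were lower and 2.82% to 16.9% higher in single clusters. Values of 1 gene in classes of the same library are not independent.

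Genes with the most similar profile over the 48 points of 11 classes and 13 neuron clusters in both libraries were ranked by Pearson's r of log2(CPM + 1) among 13006 genes. The points share libraries, depth and partly the same nuclei, so r is a description. For *Mapt* they were *Pcdh9* (0.94), *Tmeff2* (0.92) and *Kcnq3* (0.92), and for *Map2* *Gm5577* (0.95), *Grid1* (0.95) and *Negr1* (0.94). For *Prnp* they were *Jun* (0.76), *Rhob* (0.72) and *Sertad2* (0.72), and for *Cdk5* they were *Chdh* (0.75), *Pcbp4* (0.72) and *Gm19500* (0.72). *Cdk5r1* was closest to *Rtn1* (0.85), *Fbxl16* (0.83) and *Ero1lb* (0.82), *Gsk3b* to *Swap70* (0.89), *Amotl1* (0.87) and *Dennd4c* (0.85), *Fyn* to *1700025G04Rik* (0.78), *Apba1* (0.76) and *Pcdhb9* (0.75), *Mark1* to *Gm38251* (0.90), *Gucy1a2* (0.87) and *Pkia* (0.84), and *Dyrk1a* to *Wars2* (0.93), *Arid1a* (0.93) and *Dido1* (0.92). Between members, *Gsk3b* and *Dyrk1a* had r of 0.68, *Mapt* and *Map2* 0.62, *Mapt* and *Fyn* 0.62, *Dyrk1a* and *Map2* −0.70, *Cdk5* and *Cdk5r1* −0.20, and *Prnp* and *Mapt* 0.20.

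Further lists around tau were counted in excitatory neurons, where 16.2% of all genes were lower past the cut-off and 7% higher, with a median of −0.07. Of 42 other tau kinases, 40 had the minimum, with 3 lower and 3 higher past the cut-off and a median of 0.04. *Camk2d*, a CaMKII subunit, was higher (81.6 and 125 CPM, 0.61), as was *Syk* (0.54), and *Cdk5r2*, the p39 relative of p35, was lower (12.4 and 8.53 CPM, −0.54), as was *Mapk3*, the gene of ERK1 (−0.51). *Mapk3* was at −0.14 without dentate granule neurons, of which there were 1009 nuclei in PS19 and 513 in PZKO. Of 23 tau phosphatases and their regulators, 2 were lower, *Set* (−0.46), an inhibitor of the phosphatase PP2A, and *Ppp3r1* (−0.35, and −0.31 without dentate granule neurons), and 2 higher, *Ppp2r1b* (0.34) and *Ppp2r2b* (0.37, and 0.16 without dentate granule neurons).

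Of 27 microtubule-associated protein and tubulin genes, 6 were lower and 2 higher, with a median of −0.08, beside the 16.2% lower and 7% higher of all genes. *Tubb5*, a tubulin gene, was at 28.1 and 15.4 CPM (−0.87) and *Tubb2b* at −0.77, whereas *Map6* was at 0.36 and *Dcx* at 0.43, with 0.23 without dentate granule neurons and −0.34 in them. Of 22 tau turnover genes with the minimum, 4 were lower and 0 higher, with the chaperone genes *Hsp90ab1* (154 and 100.3 CPM, −0.62) and *Hspa8* (−0.60) the lowest, and *Capn2* (0.17) and *Capn1* (0.16) the highest. Of 12 prion protein family members and partners, 3 were lower, with *Pfn1* (−0.84) and *Rpsa* (−0.62) the lowest and *Adam9* (0.08) and *Adam17* (0.02) the highest. Activators and other regulators of the member kinases, a list in which not every gene activates them, had 2 lower of 12, *Cdk5r2* and *Cdk5r1*. Higher were 2, *Cables1* (0.39) and *Ptpn5* (0.33, and 0.20 without dentate granule neurons). The neuron-only transcripts *Gad1* (−0.75) and *Gad2* (−0.53), which mark inhibitory neurons, were lower in excitatory neurons, *Snap25* was at 0.12 and *Rbfox3* at 0.14. The lowest genes were mostly short: *Tubb5* spans 4.39 kb, *Hsp90ab1* 5.50 kb, *Pfn1* 2.80 kb and *Cdk5r2* 2.80 kb, against 106.4 kb for *Cables1*. Fewer than 200 UMIs kept the other genes of these lists from being counted.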

How the data were processed

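The authors counted unique molecular identifiers per gene and nucleus with Cell Ranger (7.0.1 per the submitters' processing notes, 8.0.1 in the matrix header) on mm10 and deposited these raw counts. The correction of free RNA, filters and doublet removal that the methods describe are not in the deposited counts. Nuclei with at least 600 UMIs, 300 genes and at most 5% mitochondrial UMIs were kept, and 876 and 821 nuclei with the highest Scrublet scores were removed. Both libraries were clustered together in scanpy 1.11.5 with leidenalg 0.10.2 (2000 variable genes without the members, 30 components, 20 neighbours, resolution 1). UMIs were summed per class and library and scaled to CPM, and ratios have exact 95% intervals (scipy 1.17.1). The intervals were tried on simulated Poisson counts, which follow the same model. That run held no concentration of UMIs in few nuclei, so it cannot tell whether the intervals are wide enough there. Shares are exact binomial. With 1 library per genotype no test was made. Named were the 9 members, 3 most similar genes for each and 2 lowest and 2 highest genes per list. Members and lists were chosen with earlier results of these data known, and naming thresholds after the clusters were seen. Lists cover other tau kinases, tau phosphatases, microtubule proteins, tau turnover, prion protein partners, kinase activators and other kinase regulators, and neuron-only transcripts. Of 15 alternatives, TMM scaling used edgeR 4.0.16 and size factors DESeq2 1.42.0. Neuron clusters without a fixed subtype are called by up to 2 leading genes. RefSeq tables held promoters for 6 of 9 members.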

Additional observations from a re-analysis of the deposited data

Results flagged for a closer look

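*Mark1* was the member whose ratio lay past the cut-off in opposite directions between classes. It was at −0.69 (95% counting interval −1.10 to −0.28, 85 and 128 UMIs) in vascular leptomeningeal cells, where 10 nuclei held 48.2% of the PS19 UMIs, at 0.40 (0.13 to 0.68, 181 and 270 UMIs) in oligodendrocytes and at 0.38 (0.04 to 0.73, 114 and 192 UMIs) in pericytes and mural cells, where it was at 0.24 with the stricter filter on nuclei, 0.28 with each library clustered on its own and 0.12 after thinning. Of all genes, 11.8% were lower past the cut-off in vascular leptomeningeal cells, and 5.03% were higher in oligodendrocytes and 27.4% in pericytes and mural cells. Of genes of 100 to 300 kb, the range of *Mark1*, these shares were 7.45%, 10.4% and 36.9%. The median ratio of this range was 0.24 in pericytes and mural cells. *Mark1* lies at the edge of the range, and for genes of 30 to 100 kb the shares were 9.50%, 4.41% and 18.6%. The differences in *Mark1* were not tested, since each class had 1 library per genotype.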

How the results depend on the processing

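No paired analysis was possible because each genotype had 1 library and no test was made. With 1 library per group, no library could be left out either. *Prnp* in excitatory neurons (−0.41) stayed below 0 in every alternative run, at −0.33 with TMM scaling, −0.32 with DESeq2 size factors, −0.46 as a mean over nuclei, −0.27 with the stricter filter and −0.35 without dentate granule neurons. *Mapt* there (0.07) was at 0.15 with TMM, 0.16 with DESeq2, 0.094 as a mean over nuclei, 0.019 with equal weights of the excitatory clusters and 0.16 after thinning to 2000 UMIs. The median of the 9 members (−0.00) was 0.072 with TMM and 0.083 with DESeq2. The 2 members past the cut-off became 1 with TMM and without dentate granule neurons, and 0 with DESeq2, with the stricter filter and at 1.5-fold. The 1 member highest in a neuron class became 0 as a mean over nuclei and after thinning. Of 1069 other values under the alternatives run, 988 stayed within the counting interval, 81 moved out of it, and 0 of the values past the cut-off changed sign. Of the 988, 97 came from allowing the members among the variable genes. There 0 members were chosen, so that run was no check. Values on few UMIs have wide intervals, so staying within them says little. Several values past the cut-off fell short of it under other settings, as given above. *Fyn* in precursor cells (1.19) was at 0.79 after thinning and 0.60 when doublets were not removed, and leaving out nuclei with *Enpp6*, an alternative chosen after seeing the data, gave 0.14. The causes were not tested. DESeq2 and TMM shifted all ratios by 0.12 and 0.11 in vascular leptomeningeal cells. The libraries differ in depth, intervals cover counting error only, and differences between animals within a pool cannot be seen.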
